A study of Mus musculus with 4 samples.

Results

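The cells described here are regulatory T (Treg) cells of mouse visceral adipose tissue (VAT) in which both Il1rl1, the gene for the interleukin-33 receptor ST2, and Areg, the gene for the growth factor amphiregulin, were detected. Cells were selected on their measured UMIs: a cell was counted when it held 1 or more Il1rl1 unique molecular identifiers (UMIs, the tags that mark single captured RNA molecules), 1 or more Areg UMIs, and none of Cd79a, Lyz2 and Cd8a, which mark B cells, myeloid cells and CD8 T cells. This rule found 7014 cells among the 16895 cells that passed the filters and carried 1 condition's hashtag, out of 20492 barcodes in all. They are compared with the 2435 Il1rl1-positive cells in which no Areg UMI was found, called Areg-zero cells. Since the rule reads Il1rl1 and Areg, levels of these genes are given as a description and are not tested.

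The study sorted live CD3+ CD4+ Foxp3+ cells and sequenced them in 2 droplet experiments with a 5′ chemistry. In the first, KO cells came from Srebf2flox/flox mice and WT cells from Srebf2WT/WT mice, 4 males each at 25 weeks of age. Both of these groups carried Foxp3YFP-cre, in which the Foxp3 locus drives a yellow fluorescent protein and the Cre recombinase, so that Srebf2 is deleted in Foxp3-expressing cells. In the second, HFD cells came from mice on a high-fat diet and NCD cells from mice on normal chow, 5 males each, 23 to 27 weeks old, after 22 weeks of diet. Both diet groups carried Foxp3thy1.1 and PpargTdt, reporter alleles of Foxp3 and Pparg. The mice of a condition shared 1 hashtag, so each condition is 1 sample, and differences between conditions have no test.

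VAT Treg cells are known for carrying ST2 and for responding to interleukin-33, which is released by stromal cells of the tissue. Signals from ST2 run through the adaptor MyD88 to NF-kB and the stress kinases. Amphiregulin binds the epidermal growth factor receptor; it is made as a membrane protein and shed by the protease ADAM17, and Treg cells are a known source of it in tissue repair. Early response genes, such as those for AP-1 and NR4A factors, are transcribed within minutes of a stimulus and need no new protein.

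Areg lies on mouse chromosome 5 from 91139599 to 91148432 (GRCm38.p6, the build called mm10 in the submitters' processing notes), and Il1rl1 on chromosome 1 from 40404864 to 40465418. The 250 bases before the annotated start of Areg, chr5:91139349-91139598 on the plus strand, are shown because this promoter holds 1 full cAMP response element (CRE), the site bound by CREB, CREM and ATF factors. The sequence is from RefSeq, 5′ to 3′, with the CRE in capitals.
Areg: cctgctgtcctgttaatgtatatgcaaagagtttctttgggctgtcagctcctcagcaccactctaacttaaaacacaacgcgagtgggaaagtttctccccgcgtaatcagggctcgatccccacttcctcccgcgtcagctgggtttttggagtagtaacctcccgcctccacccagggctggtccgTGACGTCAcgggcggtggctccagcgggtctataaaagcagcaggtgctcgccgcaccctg
The element TGACGTCA, whose reverse complement is the same, began 61 bases before the start. It was present in 1.55% of 32851 RefSeq promoters of this length. The AP-1 site TGANTCA, on either strand, was not in this window of Areg and was in 6.75% of all promoters. The NF-kB consensus was also not in it, and was in 7.25% of all promoters. These matches describe the sequence alone.

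The share of Il1rl1-positive cells with an Areg UMI was 74.1% in KO (95% exact Clopper-Pearson interval 72.3 to 75.9, 1721 of 2322 cells) and 76.7% in WT (75 to 78.4, 1902 of 2479). It was 66.7% in HFD (63.3 to 70, 529 of 793) and 74.2% in NCD (72.8 to 75.6, 2862 of 3855). The intervals cover counting error only and overlapped between KO and WT; those of HFD and NCD did not overlap. With each cell thinned to 2000 UMIs the shares were 68.8% in KO (66.6 to 70.9) and 72.2% in WT (70.1 to 74.2). They were 62.2% in HFD (58.0 to 66.3) and 67.8% in NCD (66.1 to 69.4). After thinning the intervals of HFD and NCD overlapped, as did those of KO and WT. Areg was not limited to Il1rl1-positive cells: 38.4% of Il1rl1-negative cells had an Areg UMI in KO, 42.2% in WT, 26.4% in HFD and 31.5% in NCD.

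Free RNA also gives UMIs in cells that do not make a transcript. In B cells (Cd79a and Ms4a1 positive, without Cd3e or Lyz2), which should lack the gene, an Areg UMI was found in 10.0% of 30 KO cells, 21.4% of 42 WT cells, 4.69% of 64 HFD cells and 5.83% of 103 NCD cells. Median depths of these B cells were 5103.5 UMIs in KO, 4310 in WT, 3124 in HFD and 4363 in NCD. Areg-positive cells had median depths of 4122 UMIs in KO, 3919.5 in WT, 3916 in HFD and 4377 in NCD, and Areg-zero cells 3625 in KO, 3381 in WT, 3233.5 in HFD and 3774 in NCD. The shares in Il1rl1-positive cells were thus above the background of every condition. The highest B cell held 3 Areg UMIs in KO, 3 in WT, 2 in HFD and 65 in NCD. A cell with few Areg UMIs therefore cannot be told from background.

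Most Areg-positive cells held more than 1 Areg UMI. The median was 11 in KO, 10 in WT, 6 in HFD and 14 in NCD, and the highest cell held 181 in KO, 208 in WT, 216 in HFD and 219 in NCD. Cells with exactly 1 UMI, the ones just inside the rule, made up 11.3% in KO, 11.8% in WT, 15.5% in HFD and 11.2% in NCD. Cells with 20 or more UMIs made up 35.0% in KO, 29.2% in WT, 25.1% in HFD and 41.8% in NCD. As summed counts per 1000000 UMIs (CPM), Areg stood at 4260 in KO, 3790 in WT, 2690 in HFD and 4830 in NCD. The Il1rl1-positive cells held 86.2% of all Areg UMIs of the kept cells in KO, 87.5% in WT, 62.7% in HFD and 94.5% in NCD.

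**Figure D1:**
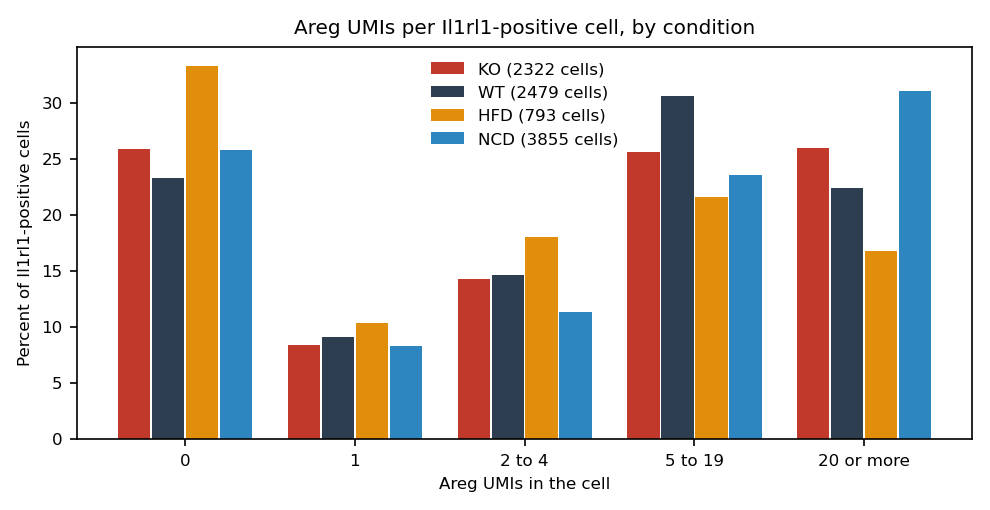
Percent of Il1rl1-positive cells (vertical axis) by the number of Areg UMIs in the cell (horizontal axis), 1 bar for each condition. The bar of 20 or more UMIs is highest for NCD, and the bar at 0 is highest for HFD.

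The label of these cells, ST2-positive Treg cells with amphiregulin, was checked with markers that the rule does not read. Klrg1, an inhibitory receptor of ST2-positive VAT Treg cells, had a UMI in 86.6% of Areg-positive cells in KO, 92.1% in WT, 67.1% in HFD and 95.5% in NCD. Gata3, a transcription factor of the same cells, had one in 75.8% in KO, 77.2% in WT, 77.3% in HFD and 86.9% in NCD. Foxp3, which defines Treg cells, was detected in 63.8% in KO, 59.2% in WT, 56.1% in HFD and 58.3% in NCD. In B cells these shares were 3.12% to 11.9% for Klrg1, 3.33% to 11.9% for Gata3 and 1.56% to 7.14% for Foxp3 over the 4 conditions. Il1rl1, which the rule reads, had a UMI in 6.67% of B cells in KO, 11.9% in WT, 3.12% in HFD and 8.74% in NCD. The T cell gene Cd3e was at 907 CPM in KO, 857 in WT, 992 in HFD and 844 in NCD, and all 8 T cell markers on the list were present in every condition. Klrg1, Gata3 and Foxp3 were thus above the B cell background in every condition. Areg-zero cells carried them too. Klrg1 had a UMI there in 77.7% in KO, 84.6% in WT, 40.5% in HFD and 91.7% in NCD. Gata3 had one in 72.5% in KO, 67.1% in WT, 59.1% in HFD and 82.2% in NCD. For Foxp3 it was 53.7% in KO, 58.8% in WT, 50.4% in HFD and 54.5% in NCD. These markers therefore speak to the ST2-positive Treg part of the label and not to amphiregulin.

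Most markers of other cells were low. The 10 macrophage and monocyte genes summed to 6.03 to 10.6 CPM over the conditions in Areg-positive cells and to 5.65 to 8.88 CPM in Areg-zero cells, with Lyz2 at 0 by the rule. In Areg-positive cells mast cell and basophil genes summed to at most 0.734 CPM, neutrophil genes to at most 0.12 CPM and stromal genes to at most 3.97 CPM. CD8 T and NK cell genes summed there to at most 24.2 CPM, adipocyte genes to at most 33.6 CPM and endothelial genes to at most 50.6 CPM. B and plasma cell genes summed to 59.9 to 208 CPM in Areg-positive and 83.6 to 221 CPM in Areg-zero cells, with Cd79a at 0 by the rule. Of the 7 genes listed for group 2 innate lymphoid cells, Il9r and Calca passed 5 CPM in Areg-positive cells of all 4 conditions, and Kit in HFD and NCD as well. The 7 summed to 66.9 to 126 CPM in Areg-positive and 41.2 to 94.4 CPM in Areg-zero cells, higher in Areg-positive cells of each condition. H2-Ab1, on the dendritic cell list, was at 10.3 to 36.7 CPM in Areg-positive and 9.59 to 20.4 CPM in Areg-zero cells. It was called higher (edgeR adjusted p = 0.0284), a call lost without WT (0.162) or NCD (0.405). Haemoglobin genes were uneven: they summed to 773 CPM in Areg-positive and 6.75 CPM in Areg-zero cells of WT, but to 18.6 CPM in Areg-positive and 463 CPM in Areg-zero cells of KO, and to 8.04 and 442 CPM in the same classes of NCD. Their part in the results below was not tested.

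Areg-positive and Areg-zero cells were compared across the genome by summing raw UMIs for each class in each condition and testing the 8 sums with edgeR's quasi-likelihood test, with condition as a block. Each condition is a separate pool of mice, so the p-values (Benjamini-Hochberg adjusted, threshold 0.05) measure the spread of the class difference over 4 mouse pools. Of 11056 genes tested, 773 (6.99%) passed: 524 (4.74%) were higher and 249 (2.25%) lower in Areg-positive cells, and 477 and 243 of these were on the same side in all 4 conditions. By size, 105 were higher and 28 lower by 2-fold or more. Without TMM scaling factors, which moves the median of all genes by -0.078 on the log2 scale, the calls were 372 higher and 523 lower, so that 41.6% of calls were higher in place of 67.8%.

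Among genes with a mean of 20 CPM or more in the higher class, the largest differences were in chemokine and early response genes. Cxcl1, a neutrophil chemokine, was at 57.0 CPM in KO, 42.2 in WT, 14.1 in HFD and 15.1 in NCD in Areg-positive cells, against 9.68 in KO, 4.05 in WT, 1.92 in HFD and 0.737 in NCD in Areg-zero cells. All 4 conditions were higher in Areg-positive cells, 8.79-fold in the fit (log2 3.14 ± 0.20 SE, edgeR adjusted p = 1.47e-06). It was a rare transcript, with a UMI in 3.66% of Areg-positive cells in KO, 2.89% in WT, 1.89% in HFD and 1.08% in NCD. In Areg-zero cells 2 Cxcl1 UMIs were counted in HFD and 3 in NCD, and 2 cells held 46.2% of the Areg-positive UMIs in HFD and 39.0% in NCD, so the size of the fold is uncertain.

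Cxcl2, a related chemokine, was common. It was at 2820 CPM in KO, 3540 in WT, 1240 in HFD and 2390 in NCD in Areg-positive cells, against 764 in KO, 1450 in WT, 275 in HFD and 443 in NCD in Areg-zero cells. The fitted difference was 4.01-fold (log2 2.00 ± 0.13 SE, edgeR adjusted p = 1.42e-06), though Areg-zero cells of WT lay above Areg-positive cells of HFD. Within each condition the classes did not cross. Cxcl2 had a UMI in 54.6% of Areg-positive cells in KO, 63.9% in WT, 35.2% in HFD and 53.2% in NCD.

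Atf3, a stress-induced factor that binds the CRE, was at 534 CPM in KO, 637 in WT, 134 in HFD and 491 in NCD in Areg-positive cells. In Areg-zero cells it was at 172 in KO, 173 in WT, 36.4 in HFD and 68.0 in NCD. Nr4a1, an orphan nuclear receptor induced by antigen receptor signals, was at 2790 CPM in KO, 2460 in WT, 1180 in HFD and 2240 in NCD in Areg-positive cells. It stood at 846 in KO, 662 in WT, 474 in HFD and 383 in NCD in Areg-zero cells. Both genes were higher in Areg-positive cells of every condition, by log2 2.17 ± 0.15 (SE) for Atf3 and 1.96 ± 0.14 for Nr4a1, each with an edgeR adjusted p of 2.57e-06.

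Hilpda, which coats lipid droplets and inhibits lipolysis, was at 907 CPM in KO, 829 in WT, 468 in HFD and 911 in NCD in Areg-positive cells, against 325 in KO, 285 in WT, 148 in HFD and 232 in NCD in Areg-zero cells. This 3.35-fold difference had 1 of the smallest errors (log2 1.75 ± 0.08 SE, edgeR adjusted p = 2.05e-07). Cdkn1a, the cell cycle inhibitor p21, was at 288 CPM in KO, 261 in WT, 158 in HFD and 239 in NCD in Areg-positive cells. In Areg-zero cells it was at 97.2 in KO, 108 in WT, 34.5 in HFD and 56.0 in NCD (3.46-fold). The other genes among the 12 highest were Calca (4.08-fold), which encodes calcitonin and its related neuropeptide, Cxcl10 (3.61-fold), an interferon-induced chemokine, Maff (3.30-fold), Snhg15 (3.27-fold), Ier5l (3.19-fold) and Csrnp1 (2.98-fold). Calca is also on the list for innate lymphoid cells, and in Areg-zero cells of HFD only 5 UMIs of it were counted.

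Of these 12 genes, 2 had the full CRE in a promoter, Maff and Snhg15, 5 had the NF-kB consensus and 3 the AP-1 site. The share of genes with a CRE was 6.14% of the 407 higher genes found in RefSeq and 3.25% of the 8584 tested genes found there, and the share with an NF-kB consensus was 17.4% and 10.6%. Among the 183 lower genes the shares were 2.19% and 11.5%. The AP-1 site was in 6.63% of the higher, 7.1% of the lower and 4.93% of the tested genes found in RefSeq. Windows of 40 bases are shown for comparison with the Areg promoter, 5′ to 3′ on the gene's strand, with the CRE or the NF-kB consensus in capitals (RefSeq, GRCm38.p6).
Maff, CRE, chr15:79347475-79347514, plus strand: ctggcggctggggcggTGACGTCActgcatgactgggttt
Snhg15, CRE, chr11:6528825-6528864, minus strand: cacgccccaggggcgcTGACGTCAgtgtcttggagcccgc
Cxcl1, NF-kB, chr5:90891159-90891198, plus strand: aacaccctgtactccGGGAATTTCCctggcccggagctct
Cxcl2, NF-kB, chr5:90903787-90903826, plus strand: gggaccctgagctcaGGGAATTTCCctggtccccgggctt
Nfkbia, NF-kB, chr12:55492652-55492691, minus strand: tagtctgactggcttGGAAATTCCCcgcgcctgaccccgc
These shares were not tested, and a match does not show that a factor was bound.

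Genes of the NF-kB pathway were higher as a group: 16 of 18 tested genes were called higher and none lower. Their median log2 difference was 0.74. Over all genes tested the median was 0.0, and 4.74% were called higher. Nfkbia, the inhibitor that NF-kB induces, was at 4270 CPM in KO, 3830 in WT, 3070 in HFD and 3510 in NCD in Areg-positive cells, against 1910 in KO, 1680 in WT, 1610 in HFD and 1120 in NCD in Areg-zero cells. The classes did not overlap over all 8 sums (log2 1.31 ± 0.09 SE, edgeR adjusted p = 1.47e-06). Nfkbiz, a nuclear cofactor of NF-kB, was higher by log2 1.36, Icam1, an adhesion molecule, by 1.23, and Rel, an NF-kB subunit, by 1.04. With 1 condition left out, 14 to 17 of the 18 were called higher.

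Among the other early response genes, 24 of 30 were called higher and none lower (median log2 0.82), against 4.74% higher over all genes tested. Gadd45b, a stress-response gene, was at 2440 CPM in KO, 2560 in WT, 1560 in HFD and 2290 in NCD in Areg-positive cells, against 1130 in KO, 1100 in WT, 695 in HFD and 752 in NCD in Areg-zero cells (log2 1.35 ± 0.07 SE, edgeR adjusted p = 4.95e-07). Nr4a3 was higher by log2 1.27. Of the 12 AP-1 and ATF genes tested, 9 were higher and none lower (median log2 0.61), among them Fosl2 (log2 1.19) and Junb (0.99). That count was 5 without WT and 6 without NCD, and the early response count 18 without WT and 21 without NCD.

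Fos, the prototype of the AP-1 genes, was an exception. It was at 1560 CPM in KO, 1970 in WT, 771 in HFD and 2330 in NCD in Areg-positive cells, against 2390 in KO, 2530 in WT, 1040 in HFD and 1890 in NCD in Areg-zero cells. It was thus lower in Areg-positive cells of KO, WT and HFD but higher in NCD, and did not pass the test (log2 -0.20 ± 0.11 SE, edgeR adjusted p = 0.346). Without NCD it was called lower (edgeR adjusted p = 0.0023).

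**Figure D2:**
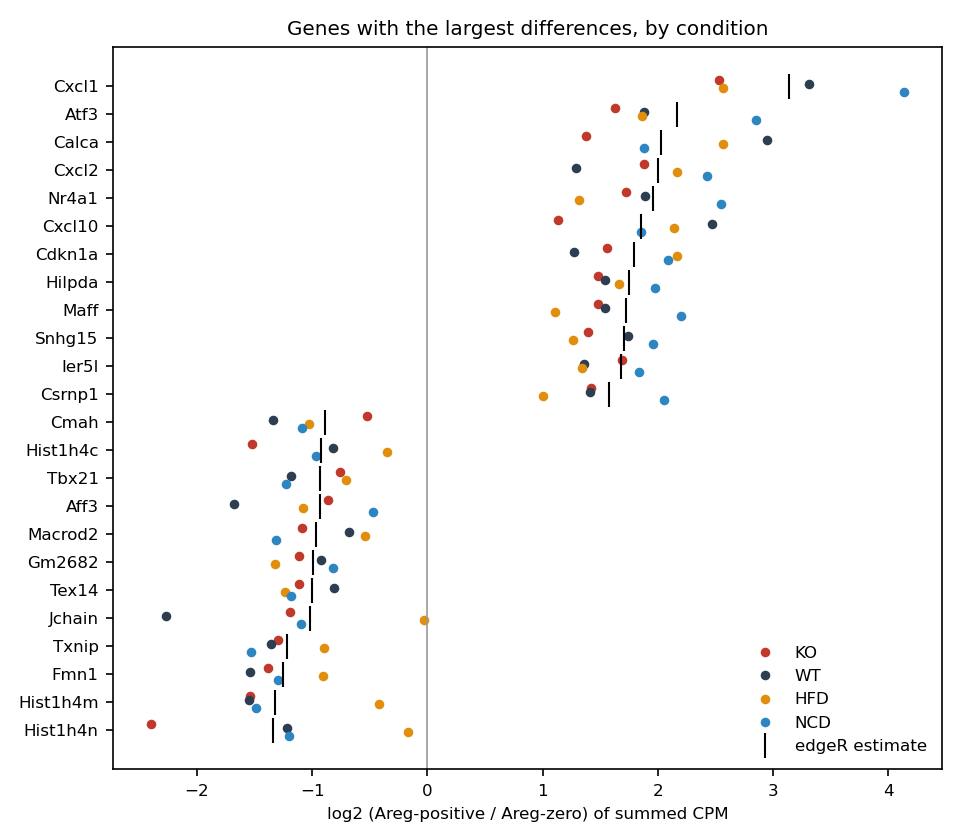
Log2 ratio of summed CPM in Areg-positive over Areg-zero cells (horizontal axis) for the 12 highest and the 12 lowest genes (vertical axis), with 1 point for each condition and a bar for the edgeR estimate. Points of the higher genes all lie right of 0; NCD has the largest ratio for Cxcl1, Atf3, Cxcl2, Nr4a1, Hilpda, Maff, Snhg15, Ier5l and Csrnp1.

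Of 11 listed cAMP and CREM genes, which include receptors and enzymes of the pathway, 4 were higher and none lower, against 4.74% and 2.25% of all genes tested. Crem (log2 0.84), Sik1 (0.72), Per1 (0.70) and Creb1 (0.47) passed the test, and the other 7 did not. Crem, which encodes repressors and activators that bind the CRE, was at 321 CPM in KO, 295 in WT, 369 in HFD and 278 in NCD in Areg-positive cells. In Areg-zero cells it stood at 196 in KO, 165 in WT, 267 in HFD and 140 in NCD (edgeR adjusted p = 2.8e-05).

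Of 13 tested genes on the list of interleukin-33 receptor and signalling genes, 2 passed the test, both higher, against 6.99% of all genes tested. The list also holds chains of the interleukin-18 receptor. Map3k8, a kinase downstream of NF-kB signals, was at 79.5 CPM in KO, 77.3 in WT, 53.5 in HFD and 56.6 in NCD in Areg-positive cells, against 46.4 in KO, 45.9 in WT, 27.8 in HFD and 32.7 in NCD in Areg-zero cells (log2 0.87 ± 0.07 SE, edgeR adjusted p = 6.26e-06). Mapkapk2, a kinase activated by p38, was higher by log2 0.43. Il1rl1 itself, which the rule reads, was at 904 CPM in KO, 935 in WT, 681 in HFD and 972 in NCD in Areg-positive cells and at 765 in KO, 856 in WT, 528 in HFD and 932 in NCD in Areg-zero cells.

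Among 15 suppressive and repair mediators, 3 were higher and none lower, against 4.74% higher and 2.25% lower over all genes tested. Il10, the anti-inflammatory cytokine, was at 174 CPM in KO, 127 in WT, 33.6 in HFD and 99.9 in NCD in Areg-positive cells, against 101 in KO, 74.2 in WT, 11.5 in HFD and 66.8 in NCD in Areg-zero cells. It was higher in all 4 conditions (1.78-fold, log2 0.83 ± 0.08 SE, edgeR adjusted p = 4.31e-05). Tgfb1, a suppressive cytokine, was higher by log2 0.61 and Ebi3, a subunit of interleukin-35, by 0.44. The call of Ebi3 was lost with cells thinned to 2000 UMIs (edgeR adjusted p = 0.193). Penk, which encodes enkephalin, did not pass: in Areg-positive cells it was at 69.1 CPM in KO, 20.9 in WT, 175 in HFD and 28.6 in NCD, and in Areg-zero cells at 44.0 in KO, 18.0 in WT, 273 in HFD and 25.8 in NCD. It was higher in Areg-positive cells of KO, WT and NCD and lower in HFD, and was called without HFD (edgeR adjusted p = 0.0344).

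Of other ligands of the epidermal growth factor receptor and the genes for their release, 5 were abundant enough to test. Adam10, a sheddase, was lower (log2 -0.23 ± 0.06 SE, edgeR adjusted p = 0.0389), a call lost without any 1 of the conditions (adjusted p = 0.07 without KO, 0.222 without WT, 0.0534 without HFD and 0.198 without NCD) or with cells thinned to 2000 UMIs (0.207). Adam17, the protease that sheds amphiregulin, was at 33.0 CPM in KO, 31.2 in WT, 34.7 in HFD and 31.4 in NCD in Areg-positive cells and at 31.9 in KO, 35.5 in WT, 42.2 in HFD and 32.4 in NCD in Areg-zero cells, and it did not pass the test.

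Genes of the adipose Treg program differed less than the early response genes. Of 14 transcription factors, 7 were higher and none lower (median log2 0.24), and 4 were higher without KO, without WT or without NCD. Over all genes tested 4.74% were higher. Bhlhe40, an activation-induced repressor, was at 224 CPM in KO, 104 in WT, 334 in HFD and 51.6 in NCD in Areg-positive cells and at 112 in KO, 69.7 in WT, 173 in HFD and 32.9 in NCD in Areg-zero cells (log2 0.89 ± 0.08 SE, edgeR adjusted p = 1.31e-05). Nfil3 was higher by log2 0.86, Batf by 0.39, Rora by 0.38 and Gata3 by 0.32. Pparg, the adipose Treg factor, was higher by log2 0.26 ± 0.07 SE (edgeR adjusted p = 0.0323), a call lost in 10 of the 17 alternative fits, among them those without KO (adjusted p = 0.11), WT (0.116) or NCD (0.248). The call of Gata3 (adjusted p = 0.0116) was lost without WT (0.0976), and that of Rora (0.0106) without KO (0.0842) or NCD (0.0699). With cells thinned to 2000 UMIs, Batf (edgeR adjusted p = 0.0747) and Pparg (0.119) were not called.

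Among 23 surface and effector genes, 5 were higher and none lower, against 4.74% and 2.25% of all genes tested. Tnfrsf9, the costimulatory receptor 4-1BB, was at 210 CPM in KO, 163 in WT, 420 in HFD and 93.4 in NCD in Areg-positive cells, against 76.3 in KO, 98.9 in WT, 205 in HFD and 48.1 in NCD in Areg-zero cells (log2 1.12 ± 0.10 SE, edgeR adjusted p = 1.05e-05). Itgav, the integrin chain that helps activate transforming growth factor beta, was higher by log2 0.99. Klrg1 was at 1100 CPM in KO, 1280 in WT, 626 in HFD and 1220 in NCD in Areg-positive cells and at 1050 in KO, 1250 in WT, 335 in HFD and 1210 in NCD in Areg-zero cells. The classes were close in KO, WT and NCD and apart in HFD, and Klrg1 did not pass the test over the 4 (log2 0.29 ± 0.10 SE, edgeR adjusted p = 0.130). Foxp3 did not pass it either (log2 0.08 ± 0.07 SE, adjusted p = 0.545), at 283 CPM in KO, 261 in WT, 210 in HFD and 216 in NCD in Areg-positive cells and 243 in KO, 286 in WT, 216 in HFD and 220 in NCD in Areg-zero cells.

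The type 2 cytokine genes Il13 and Il5 were the 2 of 11 tested cytokine genes called higher, against 4.74% of all genes tested. Il13 was at 19.1 CPM in KO, 29.8 in WT, 1.81 in HFD and 14.3 in NCD in Areg-positive cells and at 0.807 in KO, 5.40 in WT, 0.959 in HFD and 4.42 in NCD in Areg-zero cells (log2 2.49 ± 0.29 SE, edgeR adjusted p = 0.000124). Only 1.63% of Areg-positive cells in KO, 1.84% in WT, 0.567% in HFD and 1.36% in NCD had an Il13 UMI, and 2 cells held 40.4% of the UMIs in KO and 42.5% in NCD. The call was lost with cells thinned to 2000 UMIs (adjusted p = 0.298).

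Among genes with a mean of 20 CPM or more in Areg-zero cells, immunoglobulin segments left out, those lower in Areg-positive cells were led by histone genes, Fmn1 and Txnip. Txnip, an inhibitor of thioredoxin and of glucose uptake, was at 402 CPM in KO, 421 in WT, 275 in HFD and 418 in NCD in Areg-positive cells, against 990 in KO, 1080 in WT, 513 in HFD and 1210 in NCD in Areg-zero cells. The classes did not overlap over all 8 sums (log2 -1.22 ± 0.08 SE, edgeR adjusted p = 1.35e-06). Fmn1, a formin that nucleates actin, was at 865 CPM in KO, 817 in WT, 92.2 in HFD and 217 in NCD in Areg-positive cells and at 2250 in KO, 2380 in WT, 173 in HFD and 535 in NCD in Areg-zero cells (log2 -1.25 ± 0.07 SE, edgeR adjusted p = 5.02e-07). Tex14, Gm2682, Macrod2, Aff3 and Cmah were also among the 12 lowest. The histone genes Hist1h4n (log2 -1.34), Hist1h4m (-1.32) and Hist1h4c (-0.92) are near-identical copies that can share reads. Tbx21, the T-bet gene, fell by 0.93 on the log2 scale. Jchain was also called lower, but 2 cells held 94.4% of its UMIs in Areg-positive and 98.9% in Areg-zero cells of NCD.

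Of 8 genes of the type 1 program, 3 were lower, namely Tbx21, Cxcr3 (log2 -0.60) and Nkg7 (-0.51), and Stat4 was higher (0.47). Over all genes tested 2.25% were lower and 4.74% higher. Of 13 genes of resting and lymphoid-homing T cells, 3 were lower and none higher: Bach2, which restrains effector genes (log2 -0.65), S1pr1, which guides exit from tissue (-0.46), and Actn1 (-1.30), the last with few UMIs. Several of these calls depended on 1 condition: by edgeR's adjusted p, Nkg7 was lost without WT (0.248), HFD (0.078) or NCD (0.117), and Bach2 without KO (0.0972), WT (0.109) or HFD (0.161). Actn1 was lost without KO (0.13), HFD (0.198) or NCD (0.0731), and S1pr1 without WT (0.0582) or with cells thinned to 2000 UMIs (0.141). Among 14 heat shock genes Hspa1a and Hspa1b were lower and Hspa8, Hspa5 and Dnaja1 higher. Hspa1b was at 230 CPM in KO, 350 in WT, 93.3 in HFD and 539 in NCD in Areg-positive cells and at 585 in KO, 523 in WT, 138 in HFD and 822 in NCD in Areg-zero cells (log2 -0.72 ± 0.11 SE, edgeR adjusted p = 0.00144). None of 15 proliferation genes passed edgeR's test on all 4 conditions; without KO 5 were called higher, among them Mki67 (edgeR adjusted p = 0.00454).

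Cholesterol genes differed little between the classes. Of 20 synthesis genes 2 were higher and none lower, against 4.74% and 2.25% of all genes tested. Idi1, which makes an isoprenoid building block, was among the higher genes (log2 0.78). Of 15 genes of SREBP control and sterol uptake, Insig1 (log2 0.75) and Stard4 (0.48) were higher. The call of Idi1 was lost without WT (edgeR adjusted p = 0.203) or NCD (0.143), and Stard4 without KO (0.053), WT (0.13) or NCD (0.0973). Neither was called with cells thinned to 2000 UMIs (edgeR adjusted p = 0.358 for Idi1 and 0.534 for Stard4). Idi1 did not differ this way in KO, where it was at 9.18 CPM in Areg-positive and 10.1 CPM in Areg-zero cells, against 37.9 and 20.7 CPM in the same classes of WT.

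**Figure D3:**
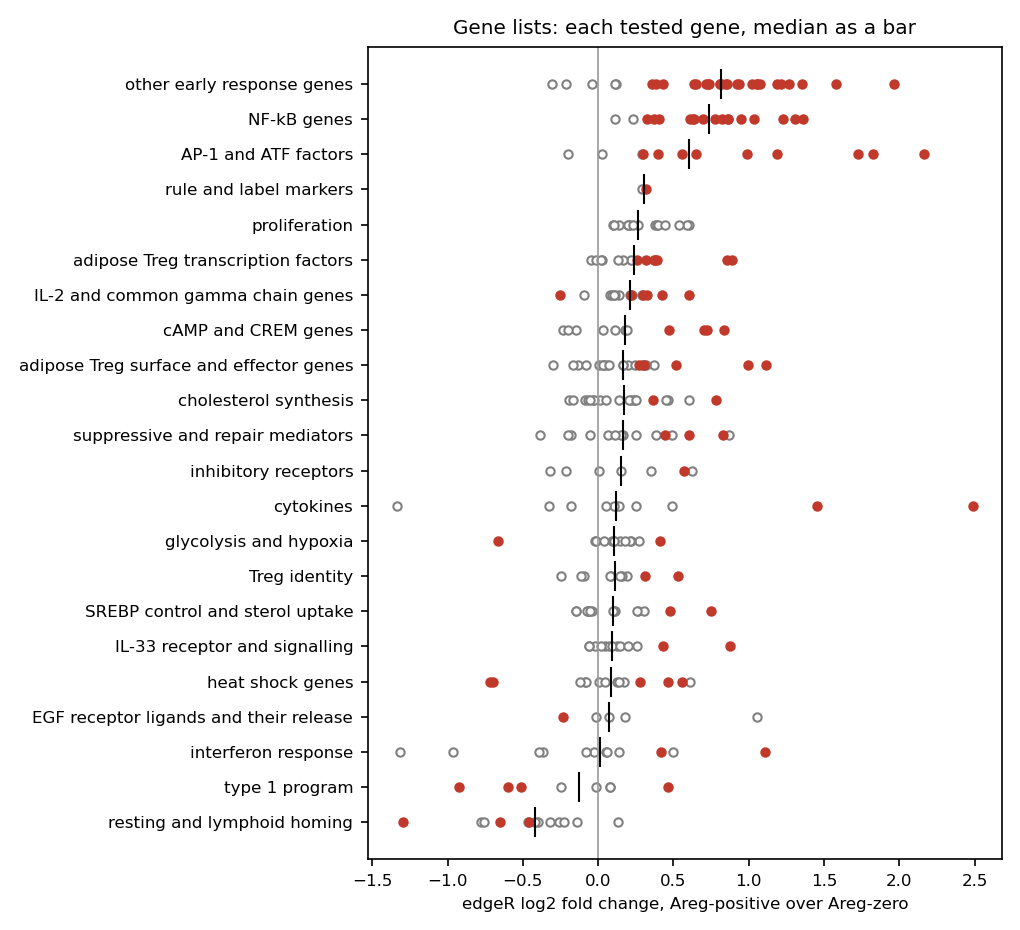
Log2 fold change of Areg-positive over Areg-zero cells from edgeR (horizontal axis) for each tested gene of 22 lists (vertical axis). Filled points passed the adjusted threshold, open points did not, and a black bar marks the list's median, which is 0.82 for the other early response genes and -0.42 for the resting and lymphoid-homing genes.

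Levels also followed the number of Areg UMIs in a cell. From 0 to 1, 2 to 4, 5 to 19 and 20 or more UMIs, Nr4a1 stood at 846, 1240, 1810, 2450 and 3890 CPM in KO and at 662, 1230, 1440, 2340 and 3550 in WT. In HFD it stood at 474, 504, 854, 1150 and 1860 CPM and in NCD at 383, 785, 1110, 1860 and 3180. The order was the same in all 4 conditions, and cells with 1 Areg UMI lay above Areg-zero cells in each. In HFD that step was within counting error: 504 CPM, from 82 cells, lay inside the exact Poisson interval of Areg-zero cells (433 to 517). Txnip ran the other way, from 1080 CPM at 0 to 217 CPM at 20 or more UMIs in WT and from 1210 to 194 CPM in NCD.

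Hspa1b in KO and NCD, and Fos in WT, did not follow the early response genes along this series. Hspa1b stood at 585, 624, 334, 240 and 78.3 CPM in KO and at 822, 829, 843, 719 and 257 in NCD. Fos was highest at 1 Areg UMI in WT, at 3110 CPM, and lowest at 20 or more, at 1470 CPM. Median depth moved with the series, from 3625 UMIs at 0 to 4595 at 20 or more Areg UMIs in KO and from 3774 to 4632 in NCD; its part in these values was not tested.

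**Figure D4:**
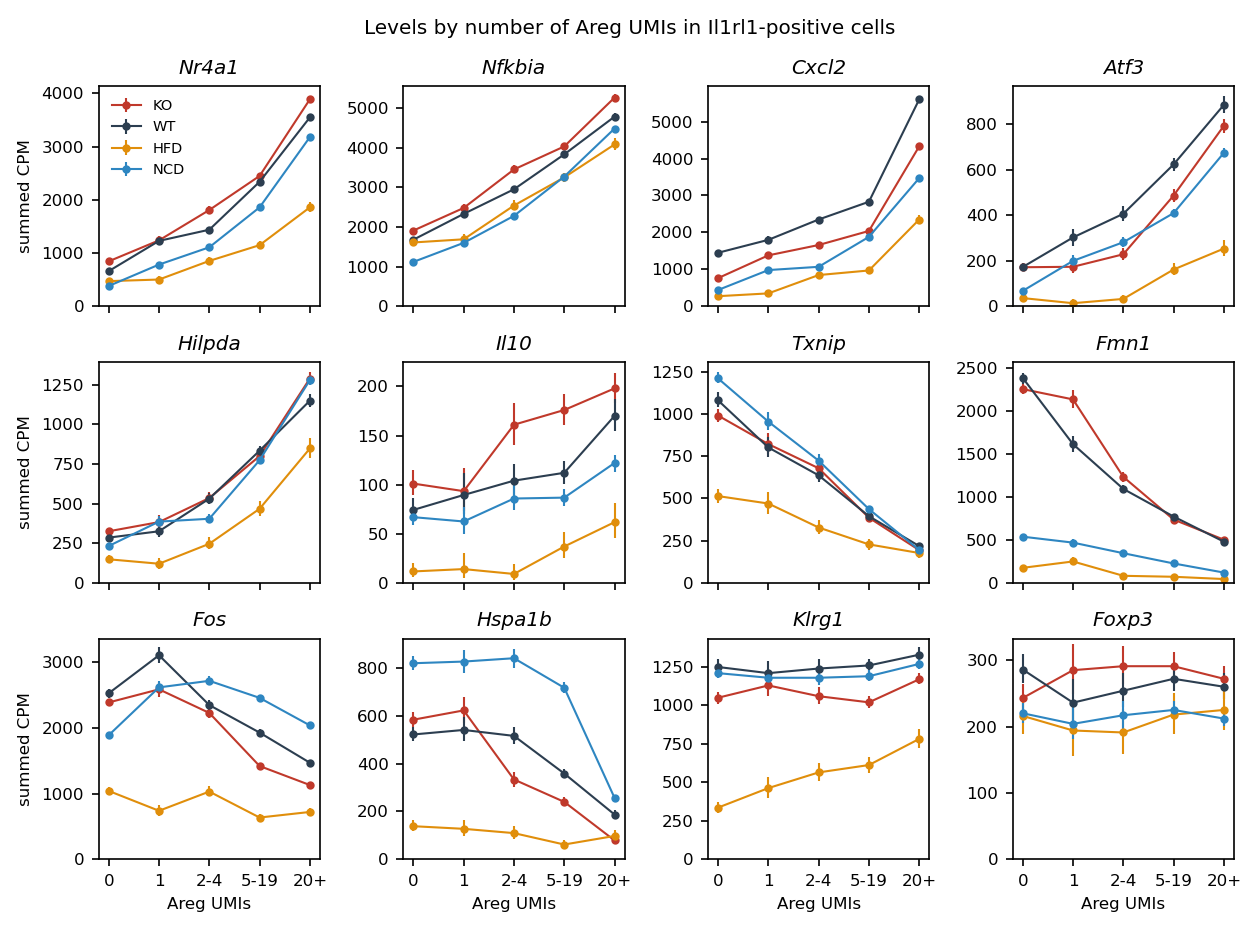
Summed CPM (vertical axes, each from 0) of 12 genes by the number of Areg UMIs in Il1rl1-positive cells (horizontal axes), a line for each condition, with exact Poisson intervals. Lines of Nr4a1, Nfkbia and Cxcl2 go up to the right, those of Txnip go down, those of Foxp3 stay level, and Klrg1 goes up in HFD from 335 to 782 CPM.

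The genes most like Areg across single Il1rl1-positive cells were found by Spearman's correlation on cells thinned to 2000 UMIs, over 4541 genes, as the mean over 4 conditions. This is a description, since cells share their library. The highest were Nfkbia (mean rho 0.52), Nr4a1 (0.50), Junb (0.46), Gadd45b (0.45) and Csrnp1 (0.40), followed by Ppp1r15a, Hilpda, Tnfaip3, Btg2 and Nfkbiz. The lowest was Txnip (-0.39). Nfkbia had 0.47 in KO, 0.50 in WT, 0.52 in HFD and 0.60 in NCD.

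KO and WT were then set side by side within the Areg-positive cells, the comparison that bears on Srebf2, the master activator of cholesterol synthesis. Srebf2 was at 2.69 CPM in KO (95% exact Poisson interval 1.69 to 4.08) and 63.6 CPM in WT (58.3 to 69.2), which fits the labels. Genes at 20 CPM or more on at least 1 side were compared, and a ratio of 1.5 or more is called higher or lower, with no test. Of 6249 such genes, 68 (1.09%) were higher and 44 (0.704%) lower in KO, and 64 of the 68 and 36 of the 44 pointed the same way in Areg-zero cells. Counts for gene lists in this comparison are to be read against the shares of 1.09% and 0.704%. Genotype, mice and hashtag cannot be told apart with 1 sample for each genotype.

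Cholesterol synthesis genes were lower in KO: 6 of the 10 that reached the floor were called lower and none higher, with a median log2 ratio of -0.71, against 0.004 over all genes at the floor. Idi1 was at 9.18 CPM in KO (7.22 to 11.5) and 37.9 CPM in WT (33.8 to 42.3), Fdps at 22.8 and 50.5 CPM and Cyp51 at 9.67 and 25.4 CPM in the same order. The median of these genes in Areg-zero cells was -0.74, so the difference was of like size in both classes.

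Among genes at 50 CPM or more in either condition, the lowest genes in KO beside Srebf2 were Apobec3, Catspere2, Sorcs1, Hist1h2ap and Cbx7. Apobec3, whose product acts against retroviruses, stood at 25.6 CPM in KO (22.2 to 29.3) and 201 CPM in WT (192 to 211), a log2 ratio of -2.97, with -3.11 in Areg-zero cells. Ccr3, a chemokine receptor of ST2-positive VAT Treg cells, was at 37.2 CPM in KO and 79.2 CPM in WT. For Hist1h2ap 2 cells held 61.3% of the UMIs in KO. Whether Apobec3 or the other genes differ through the loss of Srebf2 was not tested.

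Among genes at 50 CPM or more on 1 side, Gramd3 had the highest ratio in KO. It was at 55.8 CPM in KO (50.8 to 61.2) and 12 CPM in WT (9.78 to 14.6), a log2 ratio of 2.21 (1.90 to 2.54), while in Areg-zero cells it was at 36.7 CPM in KO and 42.3 CPM in WT. Penk was at 69.1 CPM in KO and 20.9 CPM in WT, with 2 cells holding 25.7% of the KO UMIs. Tnfsf8, the CD30 ligand, was at 80.1 CPM in KO and 30.2 CPM in WT, and Bhlhe40 at 224 CPM in KO and 104 CPM in WT. The chemokine gene Ccl5 was at 184 CPM in KO and 89.9 CPM in WT, and Cxcr3, a type 1 chemokine receptor, at 42.9 CPM in KO and 19 CPM in WT.

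Early response, AP-1 and NF-kB genes were close between KO and WT. None of 27 other early response genes at the floor and none of 9 AP-1 and ATF genes passed 1.5-fold, and of 18 NF-kB genes 1, Cd83, did. Nr4a1 was at 2790 CPM in KO and 2460 CPM in WT, and Atf3 at 534 CPM in KO and 637 CPM in WT. Il10 was at 174 CPM in KO (165 to 183) and 127 CPM in WT (120 to 135). Klrg1 was at 1100 CPM in KO and 1280 CPM in WT, Gata3 at 505 and 557 CPM and Pparg at 137 and 139 CPM in the same order.

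More genes passed 1.5-fold between HFD and NCD within the Areg-positive cells. Of 6395 genes at the floor, 557 (8.71%) were higher and 338 (5.29%) lower in HFD, and 528 of the 557 and 314 of the 338 pointed the same way in Areg-zero cells. Counts for gene lists in this comparison are to be read against the shares of 8.71% and 5.29%. HFD cells were also fewer, 529 against 2862 in NCD, and their ratios carry wider counting intervals. Diet, mice and hashtag cannot be told apart with 1 sample for each diet.

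Genes of the resting and lymphoid-homing group were higher in HFD: 8 of 11 at the floor were called higher and 1, Klf2, lower, with a median log2 ratio of 1.75, against 0.085 over all genes. With cells thinned to 2000 UMIs 5 of 9 were higher and the median was 0.77, and at 2 or more Areg UMIs 5 of 8 were higher and the median was 0.72. Tcf7, a factor of naive and memory T cells, was at 85.7 CPM in HFD (75.1 to 97.3) and 12.5 CPM in NCD (10.8 to 14.5). In Areg-zero cells Tcf7 was at 132 CPM in HFD and 12 CPM in NCD, so both classes held the difference.

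Among genes at 50 CPM or more on 1 side, Gramd3 again had the highest ratio, at 146 CPM in HFD (132 to 161) and 13.0 CPM in NCD (11.2 to 15). Below that level Itgae, an integrin chain that binds E-cadherin, had a higher one, at 37.2 CPM in HFD and 2.70 CPM in NCD. Cd83, an activation marker, was at 118 CPM in HFD and 11.5 CPM in NCD, Slamf6 at 75.9 CPM in HFD and 9.91 CPM in NCD, and Cd96, an inhibitory receptor, at 62.2 CPM in HFD and 8.87 CPM in NCD. Tnfrsf9 was at 420 CPM in HFD (397 to 445) and 93.4 CPM in NCD (88.4 to 98.5), and Bhlhe40 at 334 CPM in HFD and 51.6 CPM in NCD. Of 9 Treg identity genes at the floor 6 were higher, among them Izumo1r, the folate receptor 4 gene, at 261 CPM in HFD and 53.0 CPM in NCD.

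Surface and effector genes of adipose Treg cells were mostly lower in HFD, 14 lower and 6 higher of 23, with a median log2 ratio of -0.97. Klrg1 was at 626 CPM in HFD (597 to 656) and 1220 CPM in NCD (1210 to 1240). Pparg was at 24.2 CPM in HFD (18.8 to 30.8) and 83.2 CPM in NCD (78.6 to 88.1), and Wipf3 at 21.3 CPM in HFD and 124 CPM in NCD. Il10 was at 33.6 CPM in HFD (27.1 to 41.2) and 99.9 CPM in NCD (94.8 to 105). Gata3, at 535 CPM in HFD and 663 CPM in NCD, stayed under 1.5-fold.

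Of 27 early response genes 11 were lower in HFD and 3 higher, with a median log2 ratio of -0.54 in Areg-positive cells, against 0.08 in Areg-zero cells. With cells thinned to 2000 UMIs 8 were lower and 4 higher, with a median of -0.30. Of 9 AP-1 and ATF genes 5 were lower and none higher, with a median of -0.80 in Areg-positive and -0.77 in Areg-zero cells. Egr1, a factor induced by growth signals, was at 130 CPM in HFD (117 to 144) and 1230 CPM in NCD (1220 to 1250), a log2 ratio of -3.24, with 118 CPM in HFD and 265 CPM in NCD in Areg-zero cells. Atf3 was at 134 CPM in HFD and 491 CPM in NCD, and Fos at 771 CPM in HFD and 2330 CPM in NCD. Of 18 NF-kB genes 5 were higher and 1 lower. Hspa1b was at 93.3 CPM in HFD and 539 CPM in NCD, and Lgals3 at 125 CPM in HFD and 544 CPM in NCD.

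Proliferation genes summed to 1620 CPM in HFD and 815 CPM in NCD, and 14 of 15 were called higher. A Mki67 UMI was found in 9.07% of Areg-positive cells in HFD and 6.01% in NCD, and 2 cells held 26.4% of the HFD UMIs of Birc5. With every cell thinned to 2000 UMIs the sums were 618 CPM in HFD and 551 CPM in NCD. Of the 5 genes then at the floor, 0 were called higher and 1 lower. The part of cell depth in this was not tested. Csf2, a myeloid growth factor, had 5 UMIs in HFD and 662 in NCD. Of 10 cholesterol synthesis genes at the floor, 2 were lower in HFD, among them Nsdhl, and none higher, with a median log2 ratio of -0.02.

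**Figure D5:**
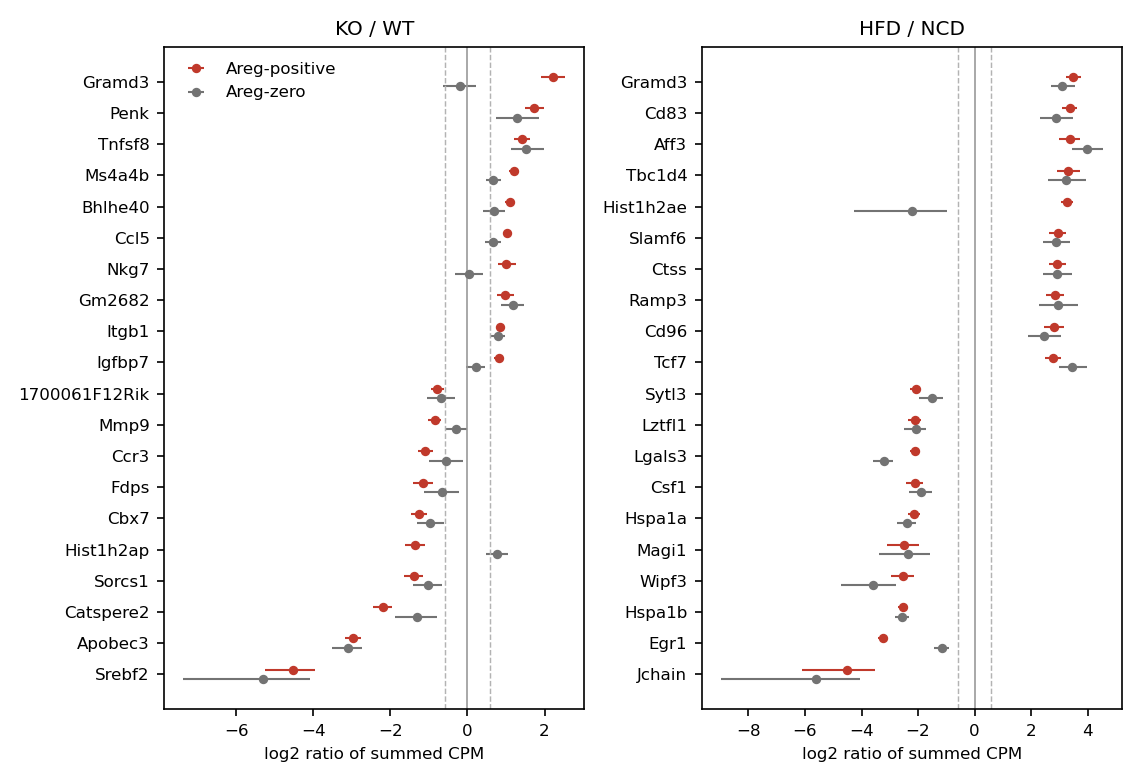
Log2 ratio of summed CPM (horizontal axes) for KO over WT (left) and HFD over NCD (right), in Areg-positive and Areg-zero cells, for the 10 highest and 10 lowest genes of each comparison; bars are exact binomial intervals and dashed lines mark 1.5-fold. Most genes have both points on 1 side of 0. Gramd3 in KO over WT has 2.21 in Areg-positive and -0.20 in Areg-zero cells.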

How the data were processed

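Per the file headers and the labels, the deposited tables are UMI counts, not normalized, for each gene and barcode, and hashtags are further rows. In the headers the Srebf2 matrix carries Cell Ranger 7.1.0 and the diet matrix 7.0.1; the submitters' processing notes name 7.0.1 and mm10. No other step of the authors was stated. Of 9036 and 11456 barcodes, 7446 and 9449 passed 500 genes or more, a mitochondrial share under 10%, 10 or more hashtag counts with 90% or more from 1 hashtag, and no Cd79a, Lyz2 or Cd8a UMI. This hashtag limit was the only treatment of doublets, and those within a condition were not removed. The matrices share 135 barcodes, of which 17 are among the Areg-positive cells. Areg-positive cells gave 8172912 UMIs in KO, 8320686 in WT, 2766350 in HFD and 14427912 in NCD; Areg-zero cells gave 2478581 in KO, 2223602 in WT, 1043144 in HFD and 4073149 in NCD.

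Sums were tested with edgeR 4.0.16 (TMM, filterByExpr with a minimum count of 10) with condition as a block; DESeq2 1.42.0 was an alternative. Within Areg-positive cells, condition ratios had 0.5 added to each sum; intervals are exact at 95% and cover counting error only. No p-value compares conditions.

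Named genes were the 12 highest and lowest called genes with a mean of 20 CPM or more in the higher class and the same direction in all 4 conditions, up to 4 of each list at 5 CPM or more, the 10 highest and lowest condition ratios at 50 CPM or more, and up to 3 of each list; others were named after their values were seen. Antigen receptor segments, immunoglobulin, haemoglobin and sex-limited genes were left out of this rule. The members and gene lists were chosen with earlier results of these data known, so no list is independent evidence. Fewer cells of a kind and less RNA per cell cannot be told apart in the sums. Values of some genes on the lists are not reported here.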

Additional observations from a re-analysis of the deposited data

Results flagged for a closer look

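The difference between Areg-positive and Areg-zero cells was checked in each of the 4 conditions for 1 condition standing apart from the others. Of 139 genes and list medians checked, 11 (7.91%) had such a condition. The cut-off gives about 1 in 20 by chance only for independent normal values of equal spread. The conditions differ in UMI totals and some items overlap, so that rate is no yardstick here. Values given are log2 ratios of summed CPM in Areg-positive over Areg-zero cells. HFD stood apart for Klrg1, at 0.90 against 0.02 to 0.07 in the others, and with it the median of the rule and label markers, at 0.72. HFD also stood apart for Ddit4 (-0.33), Hist1h4m (-0.42) and Csf2 (-2.90, on 5 Areg-positive UMIs). KO stood apart for Hspa1b (-1.35), Tnfrsf1b (0.48), Rtp4 (-3.10) and Srebf2 (0.60, in the condition where it is nearly absent). WT stood apart for Icam1, at 0.63. For the interleukin-2 and common gamma chain genes the median of NCD stood apart, at 0.05. None of these differences between conditions was tested.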

How the results depend on the processing

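All 75 named genes called between the classes kept their direction in every alternative in which they were tested. Counts of higher and lower genes moved by over 1.5 times in several: 312 and 86 with DESeq2, 196 and 27 with the diet pool alone, and 57 and 9 with no replicate block, where conditions add to the error. With 1 condition left out they ranged from 310 to 579 higher and from 74 to 246 lower, the fewest without NCD (310 and 118) and without WT (312 and 74); without KO they were 350 and 117. Without a filter 794 were higher. Lower genes numbered 157 with cells thinned to 2000 UMIs, 135 in cells of 3000 to 5000 UMIs and 92 with a Foxp3 UMI required, against 425, 393 and 365 higher. Without TMM factors 523 were lower. The last choice and that of 3000 to 5000 UMIs were added after seeing the data. Top2a, not called in the 4 conditions, was lower (-0.61) in the Srebf2 pool alone.

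Shares of cells with Areg were 68.8% in KO, 72.2% in WT, 62.2% in HFD and 67.8% in NCD after thinning, and 65.8% in KO, 67.6% in WT, 56.4% in HFD and 65.9% in NCD at 2 or more UMIs; with a Foxp3 UMI required they were 77.3% in KO, 76.9% in WT, 69.1% in HFD and 75.5% in NCD, so that KO was no longer below WT. KO against WT gave 152 higher and 115 lower genes after thinning, and 31 and 17 at a floor of 50 CPM; HFD against NCD gave 277 and 176 at that floor. After thinning, Jchain (0.10), Rrm2 (-0.53) and Ccnb2 (-0.53) changed sign in HFD over NCD. Causes were not tested. Single-cell depth limits genes under about 5 CPM.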

Other observations

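Genes that neighbour Areg were examined after their values were seen. Within 500 kb of the start of Areg, RefSeq (GRCm38.p6) lists 19 other genes, of which 6 were abundant enough to test. Of these 6, 3 were higher in Areg-positive cells, against 4.74% of all 11056 genes tested. With so few genes, picked with their values known, the count is a description. All 3 encode chemokines: Cxcl2 starts 236 kb, Cxcl1 248 kb and Cxcl3 353 kb before Areg. Cxcl3 was at 192 CPM in KO, 160 in WT, 57.5 in HFD and 70.3 in NCD in Areg-positive cells, against 79.9 in KO, 79.2 in WT, 1.92 in HFD and 21.9 in NCD in Areg-zero cells (2.81-fold, edgeR adjusted p = 0.00012). The value of 1.92 CPM in HFD rests on very few UMIs. Cxcl5, Mthfd2l and Btc, the other tested neighbours, did not pass the test. Cxcl5 averaged 4.18 CPM in Areg-positive and 1.75 CPM in Areg-zero cells (edgeR adjusted p = 0.131), and Mthfd2l, which lies between Cxcl2 and Areg, averaged 14.6 CPM and 14.7 CPM in the same classes.

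Isg15, an interferon-induced gene, was higher in Areg-positive cells (log2 1.11 ± 0.11 SE, edgeR adjusted p = 4.45e-05), as was Irf1 (0.41), while the other 10 of 12 interferon response genes tested did not pass. Over all genes tested 6.99% passed. Ctla4, an inhibitory receptor of Treg cells, was at 899 CPM in KO, 1080 in WT, 1120 in HFD and 825 in NCD in Areg-positive cells, against 654 in KO, 787 in WT, 948 in HFD and 524 in NCD in Areg-zero cells (log2 0.53 ± 0.06 SE, edgeR adjusted p = 0.000181). Pdcd1, the gene of the receptor PD-1, was higher by log2 0.57.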
